A study of Mus musculus with 71 samples.

Results

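The 50 most abundant rows of a striatal RNA-seq table were described, out of 56923 rows in all. They are the rows with the highest mean abundance over all 71 libraries, measured in TPM, the usual unit of transcript abundance corrected for length and scaled to a fixed total. They were chosen by that mean, with earlier results of these data known. RNA came from C57BL/6J mice of both sexes, bought at 8 weeks of age, and from 2 parts of the dorsal striatum, the dorsal medial striatum (DMS) and the dorsal lateral striatum (DLS). Each sample pooled 4 bilateral punches of 2 mm diameter per region, taken from 2 coronal slices of 1 animal, and polyadenylated RNA was sequenced. By the study's methods the RNA came from the cytosolic part of the lysed tissue, and the nuclei were set aside for chromatin. Mice drank vehicle (1% ethanol) or corticosterone (CORT), which by the study's methods was also given in water with 1% ethanol. The water was given for 2 weeks before behavior. Trained mice received CORT at 50 µg/mL, and the concentration for mice without behavior is not in the labels. Training was absent (no behavior), limited or extended, so that sex, region, treatment and training form 24 groups of 3 libraries, with 2 in the no behavior male DMS CORT group. All no behavior libraries carry 1 batch label and all trained libraries another, so training and batch cannot be told apart, and contrasts among trained libraries lie within 1 batch.

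The DMS is known for flexible, goal-directed action and the DLS for habitual action, and CORT is the main glucocorticoid of rodents. TPM divides a library into shares of a fixed total, so a rise in very abundant transcripts lowers the listed value of every other transcript even where its own amount is the same. In bulk tissue, fewer cells of a type and less RNA per cell cannot be told apart. The rows carry no gene names in the table as used here, so they are called by their number, with the first row of values as row 1, and neither their functions nor the tissue markers could be looked up. A place near another row says nothing here of identity. The labels do not say which DMS and DLS libraries came from the same animal or that replicates were separate animals, and p-values measure the spread between these libraries.

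The 50 rows held between 32.9% and 59.3% of a library's TPM, with a median of 41.3%. All 50 were above 0 in every library, and the lowest value of any of them was 750 TPM. Row 17917 was the most abundant at a mean of 48326 TPM, followed by row 17914 at 35670 and row 17921 at 32090. Row 34298 came next at 26620 TPM, followed by row 17920 at 26131, row 17932 at 26085 and row 17904 at 20247. The first 10 were completed by row 17925 at 14887 TPM, row 17919 at 14420 and row 18695 at 12660. Abundance fell steeply over the ranks, so that the first 10 rows alone held a median of 25.6% of a library. At the edge of the list the values lay close together. The last members were row 17689 and row 1163, both at 1624 TPM, row 4582 at 1579, row 7961 at 1578 and row 19136 at 1380. Just outside were row 16534 at 1330 TPM, row 31219 at 1327, row 4306 at 1314, row 10169 at 1310 and row 10380 at 1301.

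Membership depended little on which libraries were averaged. The median over libraries in place of the mean gave 49 of the 50 rows, the trained libraries alone 49 and the no behavior libraries alone 47. A single library's own 50 most abundant rows held between 43 and 49 of the members, and 31 members were in the first 50 of every library. Within groups, the median standard deviation (SD) of a member was 0.149 on the log2(TPM + 0.5) scale. It was 0.144 for the 1240 rows of at least 100 TPM and 0.228 over the 23395 rows that passed the filter on low values. Most members were thus about as steady as other abundant rows, but 9 of the 50 were above the median of all filtered rows.

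**Figure D1:**
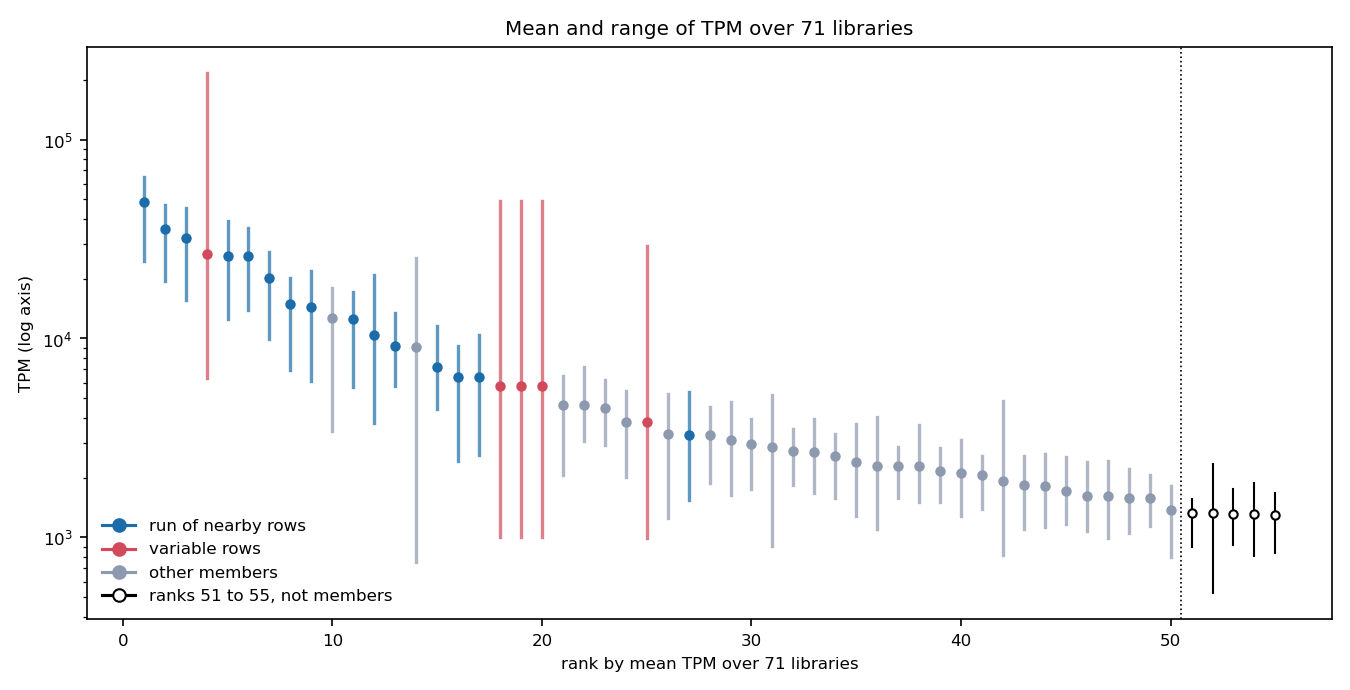
TPM of each row on a log axis against its rank by mean TPM, with points for the mean and lines from the lowest to the highest of the 71 libraries, coloured by the 3 classes described below, and open points for the rows at ranks 51 to 55. Most members span a narrow range, while the highest library of row 34298 was 34.1 times the lowest, and that of row 49838 33.8 times.

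After their values were seen, the members were sorted into 3 classes, and no class was tested as such. The first class was a run of 15 members that lay within 35 consecutive places of the table, from row 17900 to row 17934. It held a mean of 27.3% of the TPM, or 66.0% of what the 50 rows held together. All 15 were in the first 50 of every library. The 20 rows of the same stretch that were no members were far lower, with a highest mean of 226 TPM and a median of 6.44. The second class, the variable group, held 5 rows with a mean share of 4.78%. They are row 34298, row 52957 and the rows 55122, 55457 and 56105. The last 3 had identical values in every library, so they may be copies between which reads were split, and their individual levels are uncertain. The remaining 30 members together held 9.33%.

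The 5 rows of the variable group were near a low level in most libraries and very high in a few. In 67 of the 71 libraries they held at most 8.23% of the TPM, and in the other 4 between 10.1% and 39.2%. The library labelled extended female DMS vehicle replicate 2 stood far apart at 39.2%. It was followed by limited male DMS CORT replicate 1 at 21.6%, extended male DMS vehicle replicate 2 at 17.7% and limited female DMS vehicle replicate 2 at 10.1%. All 4 came from the DMS of trained mice, and each had group mates without such a level.

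Row 34298 ranged from 6345 TPM in no behavior female DMS vehicle replicate 3 to 216127 TPM in extended female DMS vehicle replicate 2. The other replicates of that last group had 45905 and 26377 TPM. In the extended male DMS vehicle group the values were 20967, 110847 and 32601 TPM, and in the limited male DMS CORT group they were 115823, 21072 and 49757 TPM. In each of these groups 1 library was far above the others. The within-group SD of row 34298 was 0.73 on the log2 scale, and the variable rows ranged from 0.72 to 0.76. Row 34298 was between 3.34 and 6.88 times as high as each of the identical rows, with a median ratio of 4.45. Its ratio to row 52957 was wider, from 2.89 to 11.5 with a median of 7.95, over libraries of both batches. As deviations from group means on the log2 scale, row 34298 correlated at 0.951 with row 52957 and at 0.960 with each identical row.

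The classes contributed unequally to the spread of the share. In a partition of the variance of the share over 71 libraries, the variable group took 62.5%, the run 37.1% and the other 30 members 0.453%. Row 34298 alone took 34.8%, more than any other row. Among the no behavior libraries the order was the reverse, with 17.8% for the variable group and 78.4% for the run. In extended female DMS vehicle replicate 2, where the variable group was highest, the run held 13.9% and the other 30 members 6.19%, both the lowest of all libraries. That library is a trained one and weighs heavily in the partition over 71 libraries. The partition is not given without it, so the order of the classes there may rest on it.

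**Figure D2:**
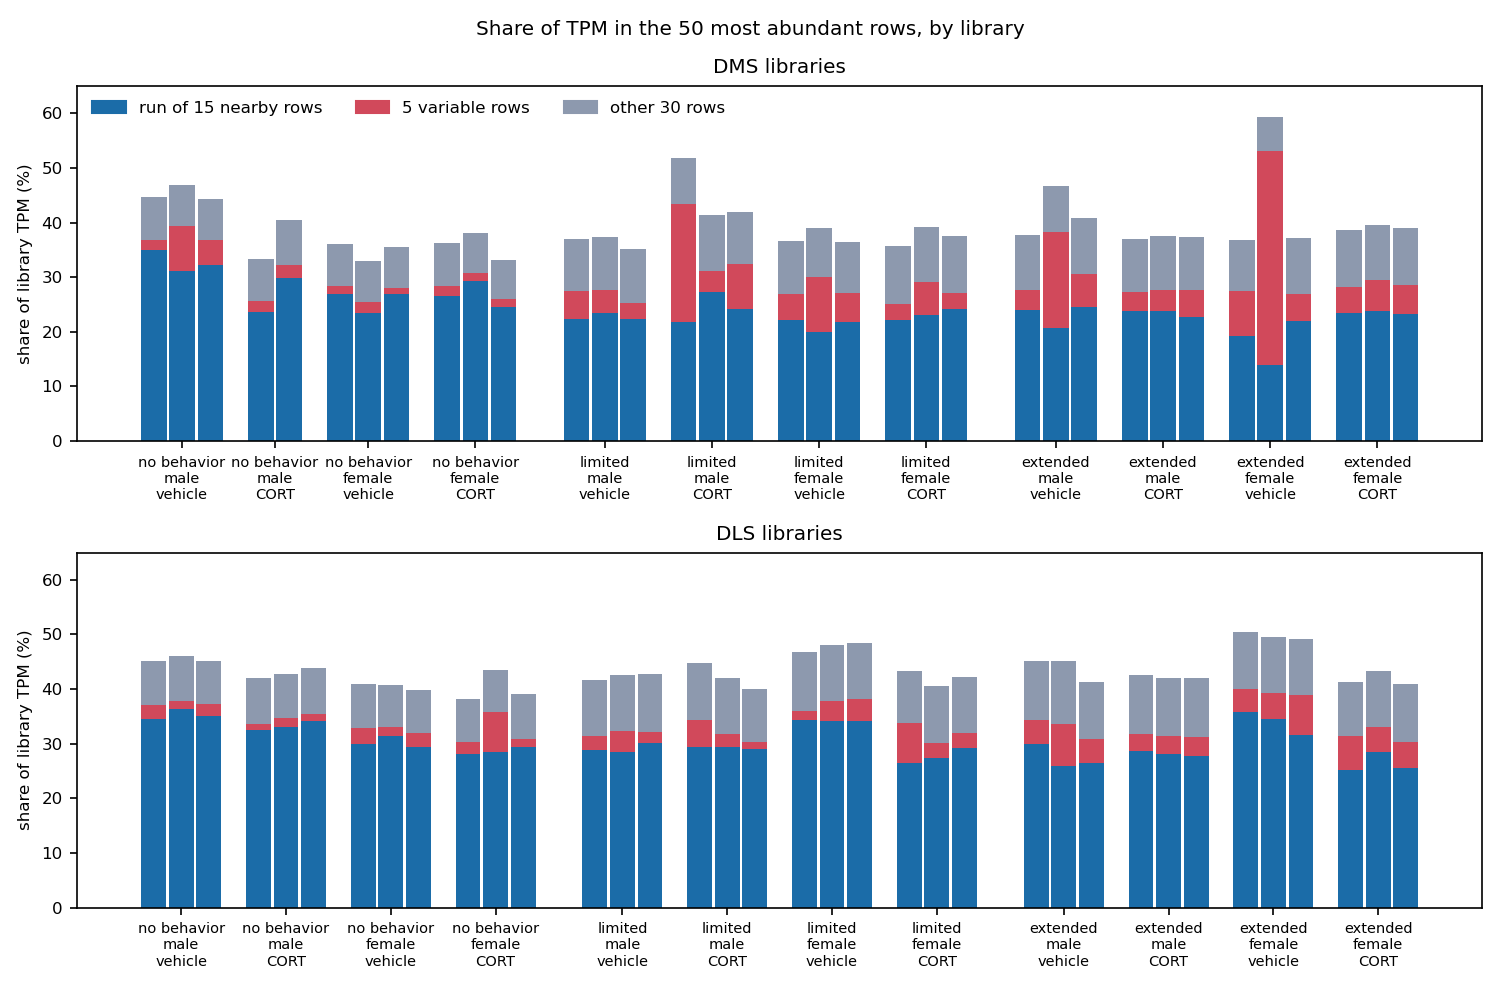
Percent of each library's TPM held by the 50 rows, stacked by class (the run of 15 rows, the variable group of 5 rows and the other 30), one bar for each of the 71 libraries, with DMS and DLS in separate panels. The run is the largest class in nearly every bar and is mostly taller in DLS than in DMS, and in the bar at 59.3% the variable group holds 39.2%.

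How the 50 rows moved together was described by the correlation of their deviations from the group means, on the log2 scale. Over the 71 libraries the median correlation of the 1225 pairs was 0.300, with 63 pairs above 0.8. The points share libraries, a fixed TPM total and, for pairs that share reads, the same molecules, so the correlations are given without a test. A second scale, called median-of-ratios below, took 18021 rows, formed the ratio of each to its geometric mean across libraries, and divided a library by its median ratio. On that scale the median was 0.277 and 57 pairs were above 0.8, so this median and this count were close on both scales.

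The number of clearly negative pairs differed more between the scales. On the TPM scale 202 pairs were below -0.3, and on the median-of-ratios scale 44. The 5 variable rows had a median correlation of -0.47 with the run and -0.44 with the other 30 members on the TPM scale, and all 150 of the latter pairs were negative. After median-of-ratios scaling these medians were 0.071 and 0.096. Row 17921 and row 34298, the most negative pair, had -0.710 on the TPM scale and 0.078 on the other. As shares, the variable group and the run correlated at -0.671 over 71 libraries. It was -0.802 in the trained and -0.325 in the no behavior libraries.

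Within the run the median correlation of the 105 pairs was 0.579, with a range from -0.363 to 0.956, so its members did not form a single block. Grouping by correlation put 7 of them in a cluster with row 18695. They were row 17914, row 17932, row 17925, row 17919, row 17908, row 17929 and row 17934. Row 18695 lies outside the run, but its closest partner was row 17929, at 0.965 on the TPM scale and 0.954 on the other. Row 17917, row 17921, row 17920, row 17904, row 17923 and row 17930 were clustered with row 29639, row 17284, row 6892, row 13463 and row 224 from outside the run. Row 17900 and row 17902 formed a small group of their own on the TPM scale. Another cluster had 21 of the other members and none of the run. It held row 4604, row 513, row 7652, row 12277, row 10340, row 6120, row 1137, row 8543, row 12320, row 20476, row 16411, row 10822, row 2100, row 2084, row 10861, row 8578, row 17689, row 1163, row 4582, row 7961 and row 19136. Its closest pair was row 1137 with row 4582, at 0.938. Row 49838, row 15469 and row 12286 joined no cluster on the TPM scale. With median-of-ratios scaling 17 rows, 10 of them from the run, formed the largest cluster, and row 49838 was joined with row 17930 and row 17934.

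**Figure D3:**
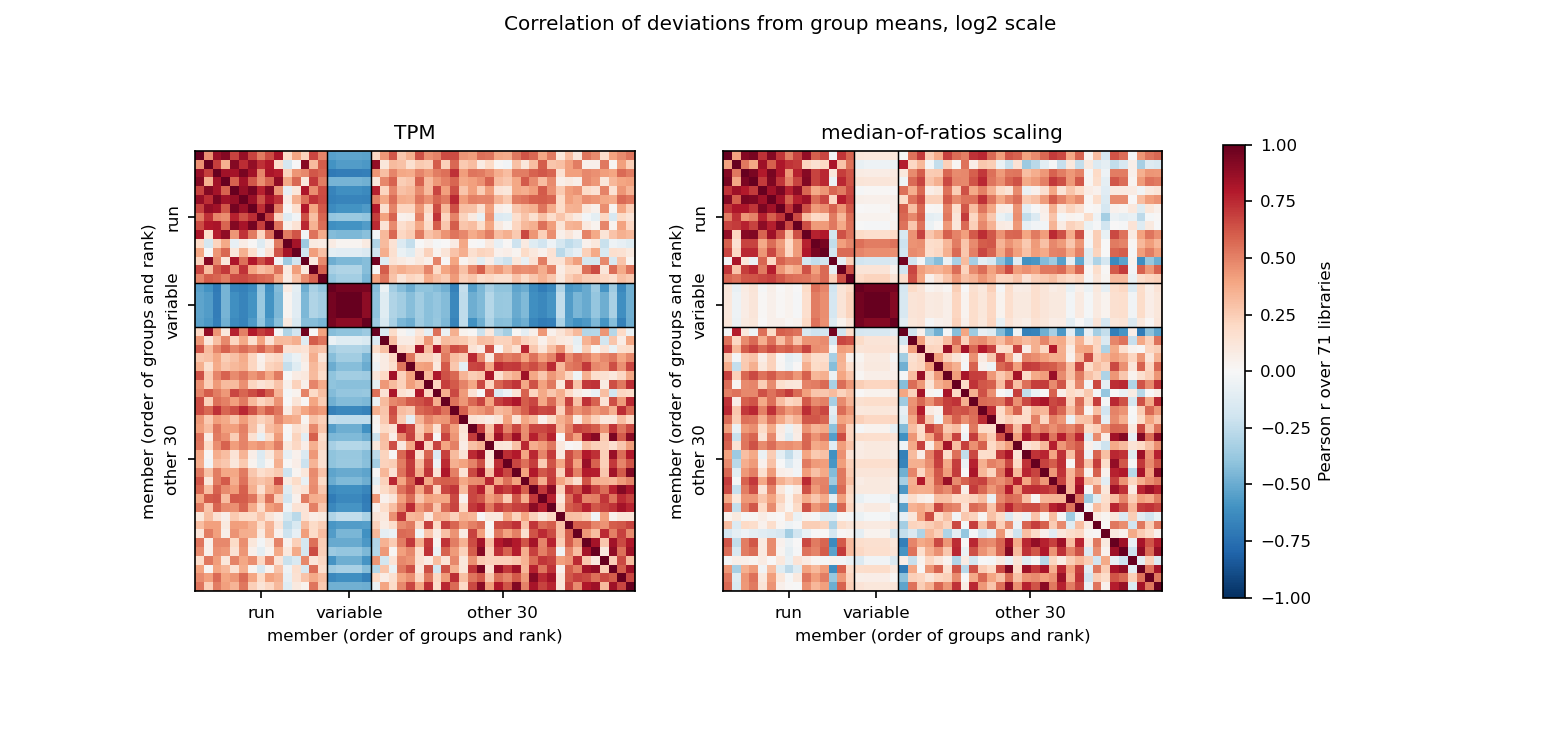
Pearson correlation between the 50 rows of their deviations from group means on the log2 scale, over 71 libraries, with rows ordered by class and colour from -1 to 1, for TPM (left) and the median-of-ratios scale (right). The 5 variable rows form a block at a median of 0.960 on the left, where their band against the other members is negative, and on the right that band is near 0.

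Over all 71 libraries the share of the 50 rows varied more by region than by training, treatment, sex or replicate number. As a description, the 24 groups accounted for a fraction of 0.651 of its variance. Fitting 24 means to 71 libraries raises such a fraction by itself, so it is not comparable with that of a single factor. Region accounted for 0.185, treatment for 0.052, replicate number for 0.037, training for 0.034 and sex for 0.012. Among the 23 no behavior libraries sex came first, at 0.390 against 0.213 for region. The run alone followed the groups more closely, with 0.903 for the groups, 0.431 for region and 0.0001 for replicate number. The other 30 members followed training, at 0.688, a split that is also the batch.

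The share was 43.4% ± 3.03 (SD, n = 36) in DLS and 39.4% ± 5.34 (SD, n = 35) in DMS. After training, the mean difference was 4.17 percentage points, beside a pooled SD of 3.43 within groups. Leaving out each library in turn gave 3.70 to 5.10 points. Of 12 sets of the same training, sex and treatment, DLS was higher in 11 and lower in limited male CORT, and the libraries did not overlap in 8. In the limited female vehicle set the libraries of DLS had 46.8%, 48.0% and 48.4%, and those of DMS 36.6%, 39.0% and 36.5%. In the extended female vehicle set DLS had 50.5%, 49.5% and 49.2% and DMS 36.9%, 59.3% and 37.2%, so the regions overlapped through 1 library.

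The run showed the region more evenly than all 50 rows together. Its share was higher in DLS than in DMS in all 12 sets, and did not overlap in 10, the exceptions being no behavior female CORT and no behavior male vehicle. In limited female vehicle mice the run held 34.2% ± 0.139 (SD, n = 3) in DLS and 21.3% ± 1.22 (SD, n = 3) in DMS. In extended female vehicle mice it held 34.0% ± 2.12 (SD, n = 3) and 18.4% ± 4.10 (SD, n = 3). The 2 sets with the widest gap were these female vehicle sets.

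Treatment moved the share differently among the groups. CORT libraries averaged 40.4% ± 3.49 (SD, n = 35) and vehicle libraries 42.5% ± 5.57 (SD, n = 36). After training the difference was -2.07 points, from -2.55 to -1.15 when each library was left out, with no test of the share. Without the variable group it was -0.30 points. Of 12 sets CORT was lower in 9 and higher in 3, and 6 did not overlap. The share was lower with CORT in the female DLS after limited training, at 42.1% ± 1.42 (SD, n = 3) against 47.7% ± 0.798, and after extended training, at 41.8% ± 1.22 against 49.7% ± 0.711. In the limited male DMS it was higher with CORT, at 45.0% ± 5.88 (SD, n = 3) against 36.6% ± 1.16, and 1 of those CORT libraries was among the 4 with a high variable group.

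The run carried the female DLS difference. It held 27.6% ± 1.45 (SD, n = 3) with CORT and 34.2% with vehicle after limited training, and 26.4% ± 1.81 (SD, n = 3) and 34.0% after extended training, without overlap. In the female DMS after extended training the order was the opposite, with 23.5% ± 0.206 (SD, n = 3) under CORT and 18.4% under vehicle. Without extended female DMS vehicle replicate 2 the vehicle mean was 20.6% and the difference fell from 5.14 to 2.91 points. Among no behavior mice, the male DMS vehicle libraries had a share of 45.3% ± 1.41 (SD, n = 3), the female ones 34.8% ± 1.69, and the 2 male DMS CORT libraries 36.9% ± 5.01.

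By training, the share was 40.4% ± 4.34 (SD, n = 23) without behavior, 41.4% ± 4.33 (SD, n = 24) after limited and 42.5% ± 5.45 (SD, n = 24) after extended training. Trained minus no behavior groups came to 1.70 points and extended minus limited to 1.19 points. Without the 5 variable rows both turned, to -1.72 and -0.80 points, and neither was tested. The latter difference was 0.260 points without extended female DMS vehicle replicate 2. The classes moved in opposite directions under this small sum. The run held 30.1% ± 3.71 (SD, n = 23) without behavior, 26.5% ± 4.30 after limited and 25.6% ± 4.74 after extended training. It was lower after training in 7 of 8 sets of sex, region and treatment, 5 of them without overlap, and higher by 3.90 points in the female DLS vehicle set, also without overlap. The other 30 members held 7.84% ± 0.331 (SD, n = 23), 9.98% ± 0.564 and 10.1% ± 1.03 in that order, and trained and no behavior libraries did not overlap in 7 of 8 sets of sex, region and treatment. The variable group held 2.47% ± 1.82, 4.89% ± 4.13 and 6.88% ± 7.48 in the same order.

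Individual members were then compared between conditions with limma on log2(TPM + 0.5), fitted over all 23395 filtered rows with Benjamini-Hochberg adjustment at 0.05. All 50 members passed the filter. The mean that chose the members covers 48 trained and 23 no behavior libraries, so it favours rows that are high after training, and that contrast is not independent of the choice. Each count is given beside the percentage of all tested rows, members included, called in the same direction, on the TPM scale first.

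Between trained and no behavior libraries 28 members were higher and 18 lower, where 17.6% and 51.5% of all rows were called. On the median-of-ratios scale 34 were higher and 9 lower, beside 32.9% and 35.7% of all rows. The share of members called higher was above that of all rows and the share called lower was below it, with no test of that difference. In the run 12 of 15 were lower on the TPM scale, while row 17919 (0.41) and row 17932 (0.10) were higher and row 17914 was not called. With median-of-ratios scaling 7 of the run were lower and 4 higher, and row 17917, the most abundant, turned from -0.14 (called lower) to 0.095 (called higher). Of the 30 remaining members, 22 were higher and 6 lower on the TPM scale and 26 and 2 on the other.

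Row 49838 changed most. It had between 750 and 5803 TPM in the 23 no behavior libraries, with a median of 1879, and between 5972 and 25317 in the 48 trained libraries, with a median of 12365. The groups did not overlap. The log2 fold change was 2.52 ± 0.0852 (SE), with an adjusted p of 2.03e-31 by limma. Row 7652 behaved alike, with 1259 to 2055 TPM and a median of 1680 without behavior, and 2634 to 5256 with a median of 4049 after training. Its log2 fold change was 1.23 ± 0.0331 (adjusted p = 7.54e-36, limma). It was chosen for the text after its values were seen. Row 17923 of the run moved the other way, with 12465 to 20798 TPM and a median of 17173 without behavior, and 3745 to 10796 with a median of 6901 after training. Its libraries did not overlap either, and the log2 fold change was -1.25 ± 0.0353 (adjusted p = 6.61e-35, limma). As training and batch are the same split, these differences cannot be assigned to either.

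Row 34298 had 6345 to 41755 TPM without behavior, with a median of 9198, and the identical rows and row 34298 were higher after training by 1.26 ± 0.178 and 1.25 ± 0.180 on the log2 scale (adjusted p = 1.38e-08 and 1.89e-08, limma). The groups overlapped. Without extended female DMS vehicle replicate 2 the difference for row 34298 was 1.20. Row 52957, which moved with them within groups, was not called, at 0.13. Other members of the run fell with training, row 17934 by 0.51, row 17902 by 0.49, row 17908 by 0.41 and row 17921 by 0.37 in log2 TPM. With median-of-ratios scaling they fell by 0.28, 0.26, 0.17 and 0.14, and were still called.

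**Figure D4:**
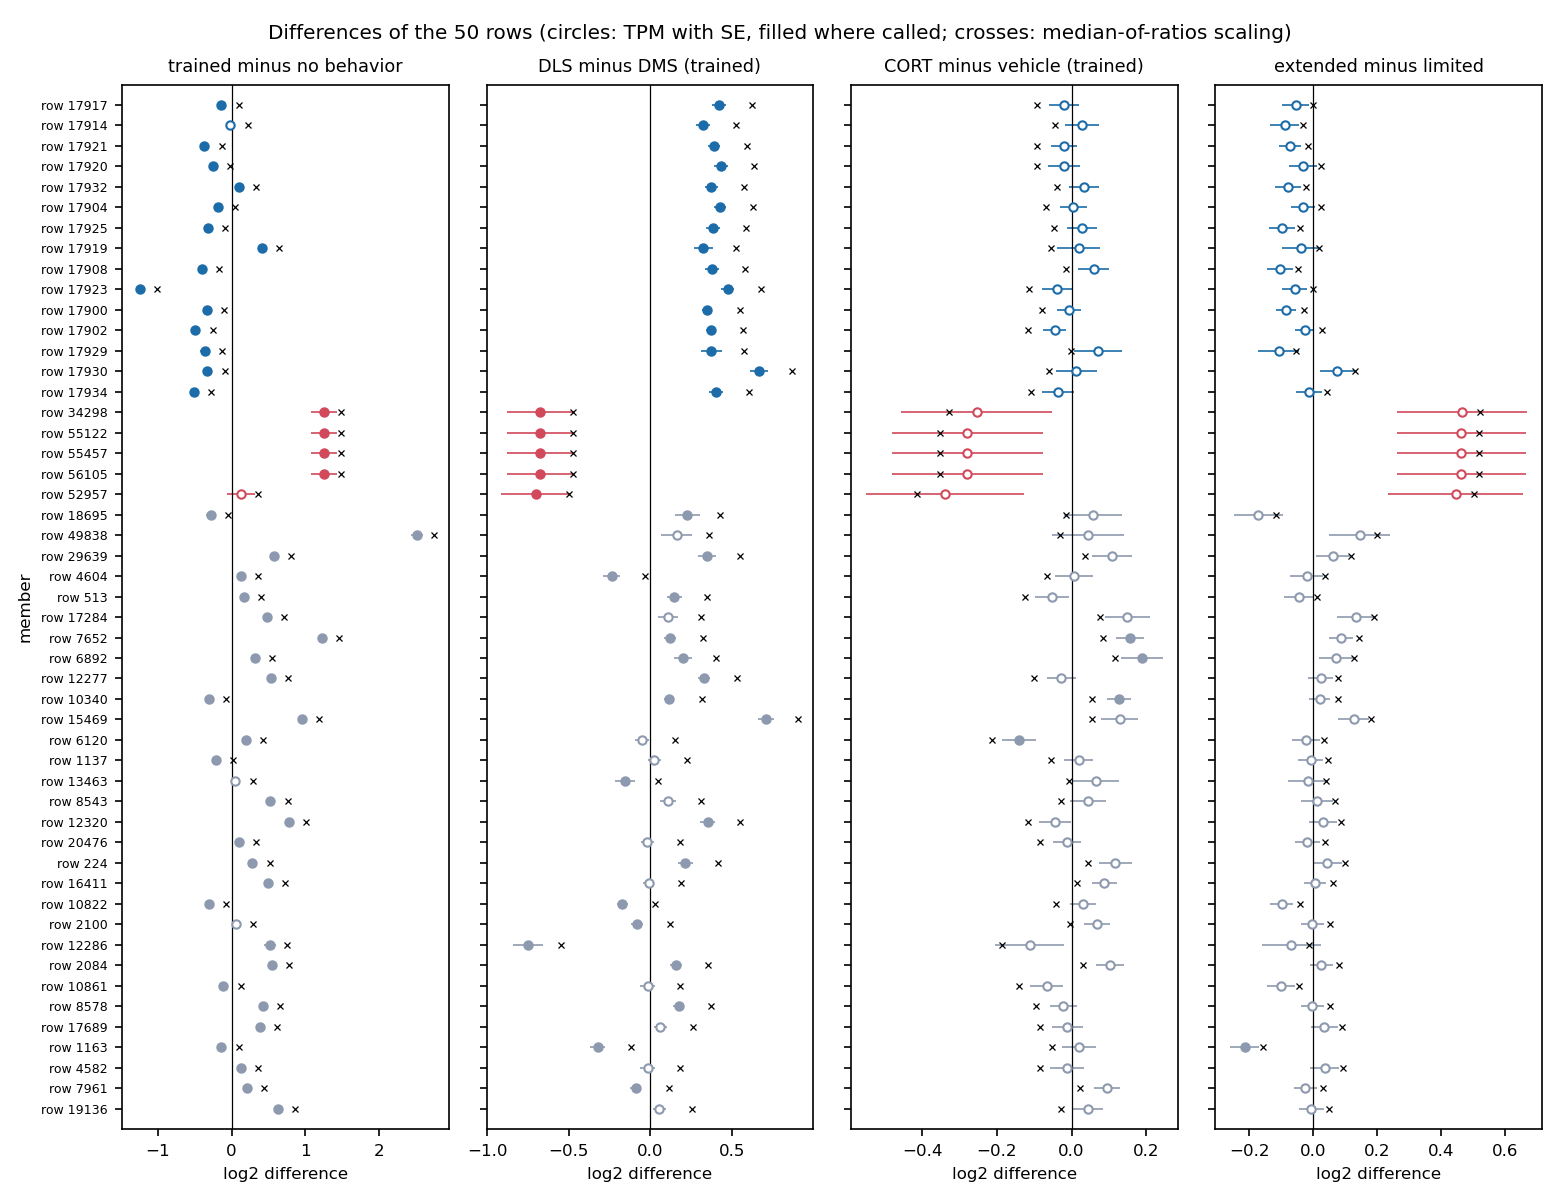
Log2 difference of each of the 50 rows in the 4 averaged contrasts, ordered and coloured by class, with circles and SE bars on the TPM scale (filled where limma called the row at an adjusted p of 0.05) and crosses on the median-of-ratios scale. The run lies above 0 in all 15 rows for DLS against DMS and on both sides of 0 for training, and few rows are called for CORT or for extended against limited training.

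Between DLS and DMS after training 27 members were higher in DLS and 12 lower, where 5.30% and 46.1% of all rows were called. With median-of-ratios scaling 40 were higher and 2 lower, beside 22.0% and 22.1%. All 15 rows of the run were higher in DLS, by 0.32 to 0.66 in log2 TPM, and all 15 were called on the median-of-ratios scale as well. The 5 variable rows were lower by -0.70 to -0.67 on the TPM scale, but on the median-of-ratios scale, at -0.50 to -0.47, none was called.

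Row 15469 had the largest difference toward DLS. It had 2384 to 5210 TPM in trained DLS, with a median of 4143, and 1908 to 3148 in trained DMS, with a median of 2546, so that the ranges overlapped. The log2 fold change was 0.71 ± 0.0495 (adjusted p = 4.52e-17, limma). In no behavior libraries, which are the other batch, it had 1971 to 3242 TPM in DLS and 907 to 1382 in DMS without overlap. Row 17930 of the run had medians of 7323 and 4393 TPM in trained DLS and DMS and a log2 fold change of 0.66 ± 0.0545 (adjusted p = 1.20e-14, limma). Row 17923, row 17920 and row 17904 followed at 0.48, 0.43 and 0.43. The most abundant row, 17917, ranged from 44708 to 64986 TPM in trained DLS and from 24622 to 48476 in trained DMS.

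Row 12286 was the row of largest difference in the other direction. It had 1070 to 2325 TPM in trained DLS, with a median of 1576, and 1739 to 4846 in trained DMS, with a median of 2697. The log2 fold change was -0.75 ± 0.0918 (adjusted p = 1.38e-09, limma). Row 52957 was lower by -0.70 ± 0.212 (adjusted p = 0.00437, limma) and the identical rows by -0.68 ± 0.201 (adjusted p = 0.00401, limma). Without extended female DMS vehicle replicate 2, row 34298 was at -0.56 (adjusted p = 0.00908, limma).

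The regions were also compared within single sets. In limited female vehicle mice 17 members were higher in DLS and 4 lower, beside 0.470% and 25.7% of all rows. In extended female vehicle mice 22 were higher and 2 lower, beside 1.11% and 12.4%. With median-of-ratios scaling these sets gave 35 and 36 members higher and 1 lower in each, beside 6.71% and 6.80% of all rows higher and 7.42% and 6.39% lower. All 15 rows of the run were among those higher in both, on both scales, at 0.49 to 0.91 and at 0.68 to 1.15 in log2 TPM.

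In female CORT mice the counts depended on the scale. After limited training 5 members were higher in DLS and 2 lower on the TPM scale, beside 0.645% and 10.2% of all rows, and 22 were higher with median-of-ratios scaling, beside 5.05%. After extended training 2 were higher on the TPM scale, beside 1.69%, and 12 with median-of-ratios scaling, beside 7.05%. The run had 4 and 1 of the calls in these sets on the TPM scale, at medians of 0.25 and 0.19, and 13 and 5 on the other, at medians of 0.45 and 0.35.

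The limited male CORT set had 7 members higher and 6 lower on the TPM scale, beside 1.74% and 2.09% of all rows, and 5 higher and 4 lower with median-of-ratios scaling, beside 3.09% and 3.16%. Of the 7 higher ones 2 were of the run. The 5 variable rows were at -2.07 to -1.78 and all called on the TPM scale. On the other scale row 52957 (adjusted p = 0.0583, limma) and row 34298 (adjusted p = 0.0671) were not called.

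Few members differed between CORT and vehicle over all trained groups. On the TPM scale 3 were higher and 1 lower, where 7.34% and 0.274% of all rows were called, so the share of members was no larger than the background among higher calls. Row 6892 was higher by 0.19 ± 0.0554 (adjusted p = 0.0259, limma), row 7652 by 0.16 ± 0.0375 (adjusted p = 0.00654) and row 10340 by 0.13 ± 0.0327 (adjusted p = 0.0112). None of these was called on the median-of-ratios scale. Row 6120 was lower by -0.14 ± 0.0445 (adjusted p = 0.0405, limma), and by -0.21 on the median-of-ratios scale (adjusted p = 0.000541). With no filter no member was called lower on the TPM scale, beside 40 of 45524 tested rows. With a block for replicate number none was called lower either, beside 39 of 23395 tested rows. On the median-of-ratios scale 2 members were lower and none higher, beside 2.44% of all rows called lower. Once extended female DMS vehicle replicate 3 was left out, 8 members were called higher on the TPM scale, beside 12.1% of all rows, and without replicate 1 of that group 7 were higher and 1 lower, beside 12.6% and 0.312%. At an unadjusted p under 0.05, limma gave 11 members on the TPM scale, beside 22.5% of all rows. The run was at -0.04 to 0.07 and the variable rows at -0.34 to -0.25, none of them called.

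CORT and vehicle were also compared in the 8 single sets of trained mice. The limited female DMS had no member called on the TPM scale, where 299 of the 23345 other tested rows were higher and 20 lower. With median-of-ratios scaling 1 member was lower there and 0 higher, beside 217 lower and 339 higher of the same 23345 other rows. In the limited female DLS 6 members were higher with CORT and none lower, beside 2.74% of all rows higher. Row 6892, row 224, row 7961, row 2100 and row 10340 were the largest, at 0.58, 0.56, 0.48, 0.39 and 0.37. All 15 rows of the run were below 0, at -0.42 to -0.19, and none was called. The order turned under median-of-ratios scaling, with 1 member higher and 13 lower, beside 0.957% and 0.834% of all rows, and 9 of the 13 were of the run. Over the 4 sets of limited training the 6 calls became 22 without extended female DMS vehicle replicate 2 and 1 without limited female DLS CORT replicate 2, while the percentage of all rows called went from 1.26% to 5.31% and 0.554%. Of the 22, 8 were higher and 14 lower, beside 3.08% and 2.23% of all rows.

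The extended female DLS gave 5 members higher and 5 lower, beside 6.80% and 0.0342% of all rows. All 5 lower ones belonged to the run, row 17920, row 17917, row 17921, row 17902 and row 17904, at -0.42 to -0.35. For row 17904, row 17917 and row 17920 the adjusted p (limma) was 0.0464 to 0.0495. Over all sets of extended training together, the number of members called lower went from 5 to 2 with a pseudocount of 0.1 and to 1 with no filter. Other rows called lower over the same sets went from 137 to 121 and to 203. Row 17917 had 64625, 64986 and 57173 TPM with vehicle and 47102, 50009 and 44708 with CORT. The same row had 63154, 63990 and 61761 TPM with vehicle and 46308, 50613 and 51433 with CORT after limited training, again without overlap. In the extended female DLS 18 members were lower and none higher under median-of-ratios scaling, beside 0.722% of all rows lower, and 12 were of the run.

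In the extended female DMS 8 members were higher with CORT and none lower, beside 3.16% of all rows higher, and 7 of the 8 were of the run. There row 17917 had 33842, 24622 and 38895 TPM with vehicle and 42566, 42084 and 41448 with CORT. The lowest value is that of the library in which the variable group held 39.2%. No member was called there with median-of-ratios scaling. In the 4 male sets no member was called on the TPM scale, where between 0.0556% and 0.893% of all rows were called in either direction. With median-of-ratios scaling 1 member was higher in the limited male DMS and 1 lower in the extended male DLS, beside 0.0641% and 0.227% of all rows in those directions. The 18 calls over the 4 sets of extended training became 36 (27 higher and 9 lower) without extended female DMS vehicle replicate 3 and 7, all higher, without extended female DLS CORT replicate 1, while the percentage of all rows called went from 2.83% to 5.59% and 1.10%.

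Extended and limited training differed in 1 member. Row 1163 was lower after extended training by -0.21 ± 0.0457 (adjusted p = 0.00560, limma), where 6.26% of all rows were called lower. With median-of-ratios scaling it was at -0.16 (adjusted p = 0.00185), and 4 members were higher and 1 lower, beside 3.93% and 5.13%. The variable rows were at 0.45 to 0.47 and not called, and at 0.36 for row 34298 without extended female DMS vehicle replicate 2. Leaving out extended female DMS vehicle replicate 3 gave 4 members lower, beside 8.98% of all rows. At an unadjusted p under 0.05, limma gave 16 members on the TPM scale, beside 22.0% of all rows. Between vehicle-extended and vehicle-limited groups, row 1163 was again the only member called, in the female DMS at -0.59, beside 2.15% of all rows called lower. On the median-of-ratios scale it was at -0.37 (adjusted p = 0.0541, limma) and not called, and no member was called after rescaling to the rows outside the 50. Over the 4 such sets no member was called without extended female DMS vehicle replicate 2, beside 0.00107% of all rows. Without replicate 3, 10 were lower, beside 2.49% of all rows called lower.

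The CORT effect was also compared between the regions, as the effect in DLS minus that in DMS. On the TPM scale 13 members were lower and 2 higher, where 0.786% and 6.78% of all rows were called. Of the 13, 11 were of the run. Row 49838 had the largest difference at -0.66 ± 0.193 (adjusted p = 0.0283, limma), followed by row 17930 at -0.48, row 17923 at -0.42, row 17920 at -0.40 and row 17917 at -0.38. Row 1163 (0.38) and row 7961 (0.29) went the other way. Median-of-ratios scaling gave 26 lower and 2 higher members, beside 3.69% and 4.54%. Of the run, 14 rows were among the 26. The scaling moves all rows of a contrast by nearly the same amount, here toward lower values. In row 1163 the extended female DLS had 993, 1066 and 991 TPM with vehicle and 1700, 1449 and 1420 with CORT, and the limited female DMS had 2288, 2174 and 2409 with vehicle and 2076, 1538 and 1768 with CORT.

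Between the sexes, as the effect in females minus that in males, 10 members were higher and none lower on the TPM scale, where 12.5% of all rows were called higher. Row 12286 (0.59), row 17284 (0.45), row 224 (0.37), row 1163 (0.32) and row 6892 (0.32) were the largest, and none was of the run. On the median-of-ratios scale none was higher and 4 were lower, beside 0.321% of all rows called lower. The named higher rows stayed above 0 on that scale, between 0.12 and 0.40, and lost their calls. The 4 lower rows were row 17929 (-0.43), row 17914 (-0.33), row 17908 (-0.31) and row 17932 (-0.31), and all belong to the run.

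The effect of the 50 rows on all others was measured by rescaling each library to the TPM outside the 50. In a contrast, the rows outside are moved on the log2 scale by the change of the remaining TPM. The shift was -0.037 for trained against no behavior, -0.085 for DLS against DMS and 0.048 for CORT against vehicle. It was -0.027 for extended against limited training, 0.073 for the regional difference of the CORT effect and 0.121 for the sex difference. Over single sets the extremes were -0.22, for DLS against DMS in limited female vehicle mice, and 0.18, for CORT in the extended female DLS.

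In some contrasts the shift was close to the median change of the other rows, while for trained against no behavior that median was -0.17, far from the shift. In the extended female DLS the median of the other rows was 0.17 with CORT on the TPM scale and 0.02 after rescaling. The number of other rows called there was 1590 before and 551 after, with 417 in both, which is 26.2% of the first list and 75.7% of the second. For the sex difference of the CORT effect 2952 other rows were called before and 302 after, with 261 in both, or 8.84% and 86.4%. In the female DMS of vehicle mice, extended against limited training gave 508 before and 72 after, and CORT in the limited male DMS gave 209 and 36.

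Other contrasts kept most of their calls. Between trained and no behavior libraries 16133 other rows were called before and 16457 after, with 15663 in both, or 97.1% and 95.2%. The split of the calls by direction moved more. Median-of-ratios scaling centres each library on its median ratio, so a split near balance there is largely set by its construction. For DLS against DMS 10.1% of the called other rows were higher in DLS on the TPM scale, 25.4% after rescaling to the rows outside the 50 and 49.8% on the median-of-ratios scale. For CORT against vehicle the percentages called higher were 96.5%, 72.7% and 55.7%, and for trained against no behavior 25.4%, 29.7% and 47.9%.

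**Figure D5:**
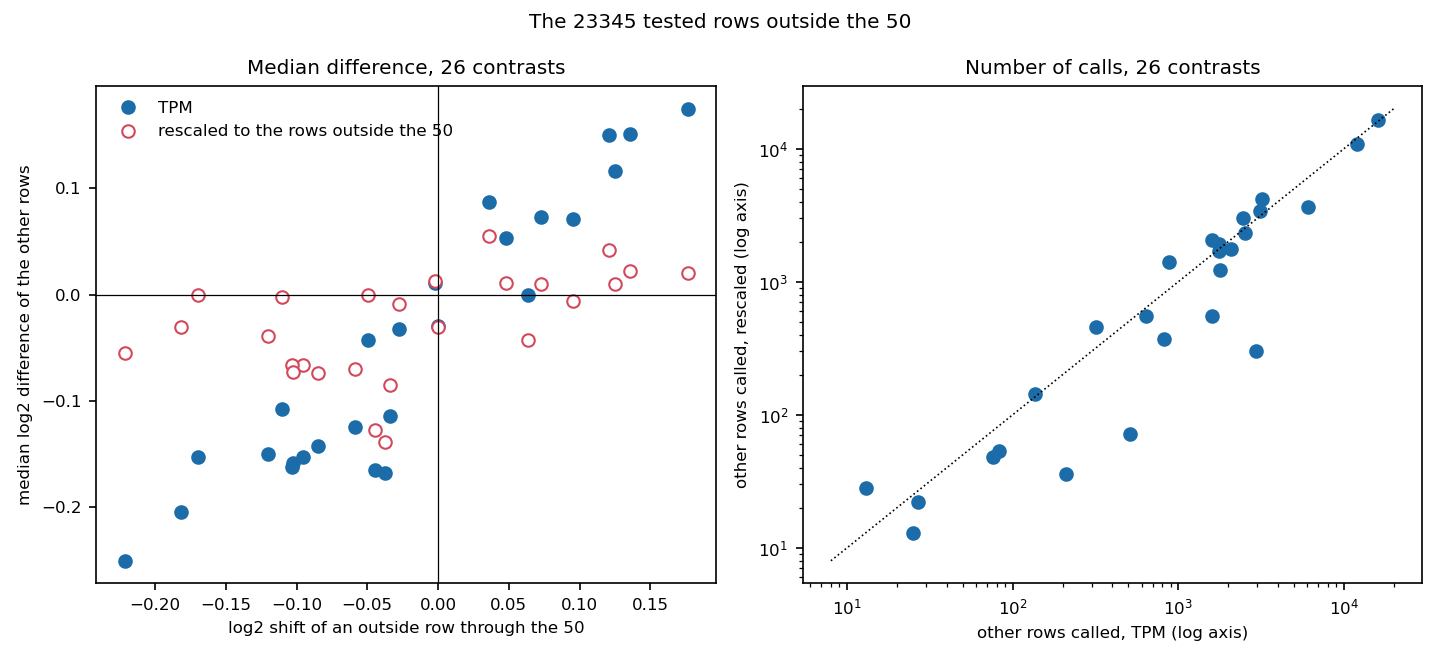
Left, the median log2 difference of the 23345 tested rows outside the 50 against the log2 shift that the changed TPM outside the 50 gives them, on the TPM scale (filled) and after rescaling (open), 1 point for each of 26 contrasts; right, the number of those rows called on the TPM scale and after rescaling, on log axes with the line of equality dotted. Shifts run from -0.22 to 0.18, some filled points lie far from their shift (a median of -0.17 against a shift of -0.037 for trained against no behavior), and the open points mostly lie closer to 0.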

How the data were processed

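RNA-seq libraries of mouse DMS and DLS punches were assigned to groups from the sample labels. The authors deposited 1 table of TPM values, made with kallisto against mm39 according to the submitters' processing notes (versions and annotation not given in the sources used here), and each library sums to 1000000. Since deposited TPM does not hold the number of reads, no counting interval is given. The number of table columns without a sample was 0.

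The members and lists were chosen with earlier results of these data known. Rows reaching 0.5 TPM in 3 or more libraries entered limma 3.58.1 in R 4.3.3 (statmod 1.5.0) on log2(TPM + 0.5). Each of the 24 groups had its own mean, all 71 libraries shared 1 fit, and the model used an empirical Bayes trend and Benjamini-Hochberg adjustment at 0.05 over the contrasts of a family. The model was tested on simulated data. Shares, correlations and figures used Python 3.11.15, numpy 2.4.6, pandas 2.3.3, scipy 1.17.1 and matplotlib 3.10.9. Clusters came from average linkage cut at a correlation of 0.5, and fold changes understate low rows. Named were the first 10 members, ranks 46 to 55, the 5 rows contributing most to the variance of the share, clusters of 3 or more, and up to 5 called members per direction and contrast. Alternatives were pseudocounts 0.1 and 1, no filter, median-of-ratios scaling, rescaling to the other rows, adjustment per contrast, a replicate block, other numbers of top rows, and leaving out each library. Shares without the run or the variable group were added after seeing the data. Row identities and sequences were not analysed here.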

Additional observations from a re-analysis of the deposited data

Results flagged for a closer look

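The CORT effect differed between DLS and DMS by an interaction term in limma with adjusted p at 0.05. The effect was lower in DLS for 13 members and higher for 2, beside 0.786% and 6.78% of all tested rows. The named members among them were row 49838 (-0.66), row 17930 (-0.48), row 17923 (-0.42), row 17920 (-0.40) and row 17917 (-0.38), and in the other direction row 1163 (0.38) and row 7961 (0.29), as differences of log2 fold changes. On the median-of-ratios scale 26 were lower and 2 higher, beside 3.69% and 4.54%. The variable group was at 0.22 to 0.32 in this contrast without a call, and its part in the result was not tested. Without extended female DMS vehicle replicate 2, the library in which that group held 39.2%, 13 were lower and 6 higher, beside 0.996% and 20.7% of all rows.

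The CORT effect differed between the sexes, by the interaction term, in 10 members on the TPM scale. In all of them the effect was higher in females than in males, where 12.5% of all tested rows were called higher. That percentage is 2936 of 23395 rows, beside 26 rows lower. The named ones were row 12286 (0.59), row 17284 (0.45), row 224 (0.37), row 1163 (0.32) and row 6892 (0.32). On the median-of-ratios scale 4 other members were lower and none higher, beside 0.321% of all rows lower, and of the rows outside the 50 there 25 were higher and 71 lower. Without extended female DMS vehicle replicate 2 there were 7 higher and none lower on the TPM scale, beside 7.59% of all rows higher. Groups of 3 libraries were too small to look for single libraries that stand apart by a range test.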

How the results depend on the processing

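Of 20 counts of calls, pseudocounts of 0.1 and 1 moved none by over 1.5 times, median-of-ratios scaling 10, rescaling to the other rows 10, no filter 6, and adjustment per contrast 3 of those tested that way. The fit with no filter tested 45524 rows and the other fits 23395, so its counts stand over a larger total. The causes were not tested.

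Members called between CORT and vehicle came to 2 with median-of-ratios scaling and 2 with no filter (4 on the TPM scale), and for extended against limited training to 5 with median-of-ratios scaling and 4 with rescaling (1). In the same settings, other rows called went from 1778 to 1283 and 1259 for CORT. For extended against limited training they went from 1602 to 2114 and 2069. The regional difference of the CORT effect gave 28 and 27 (15) and the sex difference 4, 6 and, with no filter, 6 (10). After rescaling, 1 member was higher and 5 were lower for the sex difference, beside 255 higher and 47 lower of the 23345 other tested rows. Other rows called went from 1756 to 1898 and 1913 for the regional difference. For the sex difference they went from 2952 to 96, 302 and, with no filter, 1860. Summed over the 4 contrasts of a family, CORT after limited training gave 16, 21 and, with no filter, 3 (6), and CORT after extended training 28 with rescaling and 10 with no filter (18). Other rows went from 1177 to 1012, 1070 and 820 after limited training, and from 2628 to 1111 and 1995 after extended training. DLS against DMS gave 90 and 83 after limited (54) and 101 and 87 after extended training (45). Other rows there went from 11588 to 9013 and 9188, and from 10536 to 11390 and 12338. Vehicle-extended against vehicle-limited gave 3 per contrast, and 0 with either rescaling (1).

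Other rows called for extended against limited training were 907 with no filter (1602). For CORT after extended training they were 3956 per contrast, 916 with median-of-ratios scaling and 1111 with rescaling (2628). For vehicle-extended against vehicle-limited they were 1786, 184, 160 and, with no filter, 404 (643).

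Same-numbered DMS and DLS libraries did not pair, with correlations of -0.200 to 0.217 over 35 pairs, 4 above 0.1, and 14 libraries best correlated with their own number. A replicate block, with an estimated correlation of 0.101, moved 1 of the 20 counts, the other rows for extended against limited training, to 1049. Under it the members lower with CORT went from 1 to 0 over all trained groups and from 5 to 3 after extended training. Other rows lower with CORT went from 63 to 39 and from 137 to 135.

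Leaving out 1 library gave 3 to 8 members for CORT, 1 to 4 for extended against limited training, 1 to 22 for CORT after limited and 7 to 36 after extended training, and 0 to 10 for vehicle-extended against vehicle-limited. Other rows ranged over 1303 to 3013, 903 to 2910, 385 to 4951, 1018 to 5193 and 1 to 3928 for the same contrasts, and over 7981 to 19976 for DLS against DMS after extended training. The highest member counts came without extended female DMS vehicle replicate 2 (22) or replicate 3 (8, 4, 36 and 10), with 8 also without replicate 1, and 19976 came without replicate 2. All rows called in either direction were 5.31% beside the 22. They were 12.4%, 9.47%, 5.59% and 2.58% beside the 8, 4, 36 and 10 without replicate 3. Without limited female DLS CORT replicate 2, extended female DLS CORT replicate 1 or extended female DMS vehicle replicate 2 the lowest counts (1, 7 and 0) were reached, beside 0.554%, 1.10% and 0.00107% of all rows. The lowest 385 came without limited female DLS vehicle replicate 2, 903 without limited male DMS CORT replicate 2, and 2910 without extended male DLS vehicle replicate 3. Without extended female DMS vehicle replicate 1 the counts 3013 and 3928 were reached, without its replicate 2 the counts 1303, 4951 and 1, and without its replicate 3 the count 5193.

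The median share was 25.6% for 10 rows, 46.5% for 100 rows and 36.4% without the most abundant row. Without the variable group, an alternative added after seeing the data, it was 37.0%, trained minus no behavior reversed to -1.72 points, extended minus limited reversed to -0.80, and DLS minus DMS was 7.83. Without the run, also added, it was 13.9%, trained minus no behavior was 5.61 and DLS minus DMS reversed to -2.88. TPM holds no depth, so the counting error behind any value is unknown.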
